A study of Mus musculus with 12 samples.

Results

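Retained-intron transcripts are spliced or partly spliced RNAs of a gene that keep sequence which its coding transcripts remove. The members described here are the transcripts with the annotated biotype retained_intron that passed a filter on level: they were chosen by their RPKM (reads per kilobase of transcript, scaled to sequencing depth), with a value of 1 or more in 3 or more of the 12 libraries. There were 7807 of them among 22210 retained_intron rows and 141450 transcripts in all. They came from 4325 genes, of which 4259 were protein coding, and the value followed is the share of a member, that is, its RPKM as a percent of the summed RPKM of all transcripts of its gene. Because the RPKM threshold chose the members, their being detected is not a result.

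The study sequenced poly(A) RNA from mouse retina in 4 groups of 3 libraries. The groups were Pilrb1/2+/+ (wild type) and Pilrb1/2 -/- (knockout) mice, each at 28 days after birth (P28) and at 12 months. The deletion was made by CRISPR in C57BL/6J zygotes and carried on C57BL/6J by crossing, so both genotypes share that background; the series text counts Pilra among the deleted genes, while the genotype labels name Pilrb1/2 only. Nothing in the labels says that the 3 libraries of a group come from separate animals, so p-values measure the spread between these libraries, which may be partly technical.

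Depth read back from the smallest step between values in the gene table was 14718857 to 25879876 reads per library. The labelled tissue carried its defining marker in every library: Sag, the rod arrestin gene, had a CPM (the deposited depth-scaled gene value) of 1346 to 3043. The targeted genes gave no check of the genotype: Pilrb1 was above 0 in 1 library, 12-month knockout library 2 (CPM 0.0520), and Pilrb2 in 1, 12-month wild-type library 1 (0.0436), both under the value of 3 reads, 0.111 to 0.192 CPM. Pilra had a CPM of 0.133, 0.167 and 0.170 in P28 wild type, 0.441, 1.16 and 0.819 in P28 knockout, 0.159, 0.221 and 0.268 in 12-month wild type and 0.0556, 0.309 and 0.293 in 12-month knockout, so it was not lower in the P28 knockout libraries. The retained-intron transcripts Pilra-203, Pilrb1-203 and Pilrb2-203 stayed under the RPKM threshold and are not members.

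Some libraries stood apart. P28 knockout library 2 had a summed CPM of lens genes of 5961, a Malat1 CPM of 2747 and 4.56% of its gene signal in mitochondrial genes, the lowest of the 12. P28 wild-type library 3 had a lens sum of 2300, and the mitochondrial share of 12-month knockout library 2 was 12.6%, the highest. Xist, which is expressed from the inactive X chromosome of females, was over 100 CPM in 2 of 3 P28 knockout and 2 of 3 12-month wild-type libraries and in none of the other groups, so that sex is unbalanced between genotypes at both ages. Fewer cells of a type and less RNA per cell cannot be told apart in whole retina.

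An intron is removed by the spliceosome, which recognises a donor site that almost always begins with GT and an acceptor site that ends with AG. Introns that stay in a polyadenylated RNA often keep it in the nucleus or, after export, bring a premature stop codon that can lead to nonsense-mediated decay. Genes of splicing regulators are known for regulated or detained introns of this kind, and neurons use them to set the output of many genes. Retina adds a clinical link: mutations in several core spliceosome proteins, among them PRPF31, PRPF8 and SNRNP200, cause retinitis pigmentosa.

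The sequences below carry the transcripts on which the results turn. The first set shows splice sites that a member reads through without splicing, each as 20 intron bases in capitals beside 10 exon bases in lower case, 5′ to 3′ on the gene's strand, from GENCODE M21 transcripts (GRCm38). The 3 Pds5a members and Zfand5-203 are those called at P28, the shares of Lrp6-205 and Dedd2-203 rose with age in the knockout, and those of Reep6-206 and Ldha-204 were higher in knockout than wild type at 12 months.
Pds5a-210: GTTCTTTTTTTTTTTAATAGgacttctgta
Pds5a-206: aagccataagGTAAGGTAGGAAGTGCATGG
Pds5a-205: TGCGTTTCCTCACTTACTAGtgcactggta
Zfand5-203: agcccaatggGTAAGTTGTTTCCAAGAAAA
Lrp6-205: catcaagtggGTAAGTGTATAATGTACAAA
Dedd2-203: tgggacacagGTGAGTCTGTCCTGTGACTA
Reep6-206: acccgggacgGTGTGTACTTGGGGCAGATG
Ldha-204: cttaatgaagGTAAGTGGAGATCCTTCATG
They lie at chr5:65620603-65620632, chr5:65644000-65644029 and chr5:65638653-65638682 on the minus strand, chr19:21276576-21276605 on the plus strand, chr6:134541632-134541661 and chr7:25217525-25217554 on the minus strand, and chr10:80334125-80334154 and chr7:46847736-46847765 on the plus strand. The sites of Pds5a-210 and Pds5a-205 are acceptors, ending in AG at the last capital, and the other 6 are donors, opening with GT at the first. Ldha-204, Lrp6-205 and Zfand5-203 share the donor start GTAAGT, Dedd2-203 has GTGAGT, and Reep6-206 has GTGTGT.

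The second set shows whole introns kept inside a member, the intron in capitals and 10 exon bases on each side in lower case. They were taken from a very abundant member (Gapdh-206), spliceosome genes (Snrnp70-208, Snrnp200-205), a cone and a synaptic gene (Gnb3-203, Slc17a7-203) and a glycolytic gene (Aldoa-206).
Gapdh-206: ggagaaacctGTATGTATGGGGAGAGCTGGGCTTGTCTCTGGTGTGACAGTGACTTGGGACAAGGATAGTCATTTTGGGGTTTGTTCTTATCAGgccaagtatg
Snrnp70-208: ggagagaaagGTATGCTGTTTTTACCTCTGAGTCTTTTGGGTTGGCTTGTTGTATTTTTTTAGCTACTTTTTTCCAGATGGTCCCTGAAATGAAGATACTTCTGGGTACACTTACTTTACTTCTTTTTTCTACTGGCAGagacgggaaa
Snrnp200-205: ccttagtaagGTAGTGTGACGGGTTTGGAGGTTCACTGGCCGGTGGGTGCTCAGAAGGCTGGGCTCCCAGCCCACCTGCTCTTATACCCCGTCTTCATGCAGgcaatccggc
Gnb3-203: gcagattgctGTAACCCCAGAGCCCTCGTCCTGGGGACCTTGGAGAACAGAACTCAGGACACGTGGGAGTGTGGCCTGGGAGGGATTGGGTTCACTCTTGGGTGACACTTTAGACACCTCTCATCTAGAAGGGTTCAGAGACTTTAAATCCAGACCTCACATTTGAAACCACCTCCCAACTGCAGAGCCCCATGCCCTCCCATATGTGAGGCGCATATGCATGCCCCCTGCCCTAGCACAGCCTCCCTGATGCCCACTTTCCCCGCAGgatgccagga
Slc17a7-203: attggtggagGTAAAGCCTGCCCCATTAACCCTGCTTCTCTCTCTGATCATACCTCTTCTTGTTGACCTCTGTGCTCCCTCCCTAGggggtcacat
Aldoa-206: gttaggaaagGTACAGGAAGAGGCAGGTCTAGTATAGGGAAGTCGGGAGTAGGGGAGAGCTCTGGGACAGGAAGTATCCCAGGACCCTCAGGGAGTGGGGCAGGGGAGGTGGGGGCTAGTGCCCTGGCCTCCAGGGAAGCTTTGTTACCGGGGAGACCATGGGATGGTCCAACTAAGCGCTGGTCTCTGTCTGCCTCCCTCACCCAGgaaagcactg
With their flanks they lie at chr6:125162384-125162487, chr7:45392124-45392272, chr6:124839396-124839673 and chr7:126797767-126797983 on the minus strand, and at chr2:127237957-127238068 and chr7:45170315-45170410 on the plus strand. The shortest of these introns has 76 bases (Slc17a7-203) and the longest 258 (Gnb3-203), and their GC content runs from 37.2% in Snrnp70-208 to 61.4% in Aldoa-206.

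The label was checked against the GENCODE M21 annotation of GRCm38, in which 7706 of the 7807 members had the same ends and length. At least 1 whole intron of another transcript lay inside an exon of 2608 members. A further 5052 had no whole intron but did have bases that no transcript of another biotype of their gene covers, as a transcript that starts or stops within an intron does. In 71 members no base was their own, and the estimate for these rests on how the quantifier divides shared reads. Median member length was 848.5 bases, of which 351 were own bases. Splice signals at the sites read through were ordinary: 98.7% of 5681 donor sites began with GT and 99.6% of 6002 acceptor sites ended with AG.

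The 4422 distinct whole introns inside members were short. Their median length was 344 bases, against 1228 bases for the 66192 introns of coding transcripts of the same genes. In retained_intron rows whose transcript was not a member, 5796 introns had a median of 251 bases and a GC content of 52.8%, against 48.4% in members. Donor and acceptor were GT-AG in 4313 (97.5%), GC-AG in 70 and AT-AC in 7. A donor start of GTAAGT or GTGAGT, read on the gene's strand, was present in 23.6% of 4421 introns in tested members and in 23.3% of those in other retained_intron rows. These are descriptions of annotated sequence, since the rule chose the members by abundance.

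Most members were a minor product of their gene. The median share over libraries had a median of 10.3% across members, with quartiles of 4.82% and 20.9%, and 402 members held more than 50% of their gene. The median of the mean RPKM was 2.27. Only 798 members averaged an RPKM of at least 10, and 17 of at least 100. At the threshold, Arhgef25-208 and Myo6-207 just passed and Hmgxb4-204 and Trappc2l-202 just failed, all with a third-highest library at an RPKM of 1 when rounded.

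Detection was broad: 4393 members reached an RPKM of 1 in all 12 libraries and 397 in exactly 3. Of those, 38 did so in the 3 libraries of 1 group alone, 14 in P28 knockout, 14 in 12-month wild type, 10 in 12-month knockout and 0 in P28 wild type. Such members had to differ between groups, and 6 of them are among the calls at 12 months below, 4 higher and 2 lower in the knockout. Single members came from 2446 genes and several from 1879. Gas5, a noncoding host gene of small nucleolar RNAs, had the most, with 15.

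Metabolic and RNA-binding genes were among those that gave the most abundant members. Gapdh-206, from the glycolytic glyceraldehyde-3-phosphate dehydrogenase gene, had the highest mean RPKM, 264, and a median share of 36.4%. Next to it stood 2 members of Hnrnpa2b1, a splicing regulator of the hnRNP family (mean RPKM 214 and 166), Srsf5-212 of an SR splicing factor (183), Hsp90aa1-205 of the inducible cytosolic HSP90 (173), Ctnnb1-215 of beta-catenin (163) and Rsrp1-204 (161). Srsf5-212 and Ctnnb1-215 were main products, with median shares of 58.5% and 73.5%.

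A few members were nearly the whole measured output of their gene. Numbl-205, H2-Q7-206, Npff-202, Gpr12-202, Gm42890-201 and 1700120C14Rik-203 had a median share of 100%. All were faint, with a mean RPKM between 0.954 (H2-Q7-206) and 5.29 (Gm42890-201), and their lowest shares ranged from 76.4% in Numbl-205 to 96.4% in Gm42890-201. Npff encodes a neuropeptide and Numbl an adaptor of the Notch pathway.

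Summed over members, the retained-intron signal moved differently at the 2 ages. In P28 wild-type retina members made up 7.63, 8.75 and 7.45% of the RPKM of a library, and in P28 knockout 9.33, 10.8 and 9.10%. The groups did not overlap, and the highest value was that of P28 knockout library 2, the library rich in lens transcripts. Without it the P28 groups still did not overlap. At 12 months the values were 8.42, 8.73 and 9.21% in wild type and 8.40, 7.96 and 8.95% in knockout, which overlap. The median share within a gene gave another order: 9.69, 10.3 and 9.04% against 10.2, 11.4 and 10.5% at P28, which overlap, and 9.80, 10.3 and 10.3% against 10.8, 10.6 and 11.0% at 12 months, which do not. Other classes also separated at P28. The nonsense-mediated decay biotype made up 2.65 to 2.85% in wild type and 2.98 to 3.38% in knockout. Processed transcripts made up 5.13 to 5.61% and 5.81 to 6.77%, and long intergenic noncoding RNAs 1.11 to 1.32% and 1.40 to 1.62%. Protein-coding transcripts were lower in knockout, 69.3 to 70.4% against 70.9 to 72.6%. The P28 difference in sums was thus not particular to members. These sums are given without a test.

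**Figure D1:**
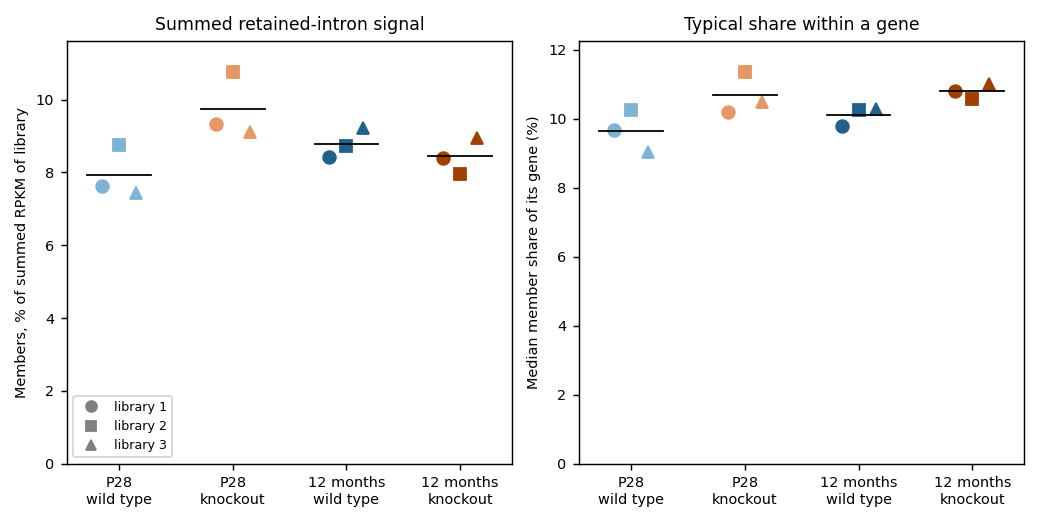
Members as a percent of the summed RPKM of each library (left) and the median member share of its gene in percent (right), by group; points are single libraries, marker shapes are library numbers and lines are means of 3. P28 knockout lies above P28 wild type on the left, and 12-month knockout lies above 12-month wild type on the right.

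Other measures were also read by genotype, and some differed, not always in the direction of these sums. A summed CPM of 10 nuclear noncoding RNAs was 3629 to 5529 in P28 wild type and 5131 to 6261 in P28 knockout, and 3484 to 4275 against 4189 to 5044 at 12 months. The genotypes overlap in this sum at both ages. Malat1 alone, a nuclear noncoding RNA, was 659 to 1927 against 1017 to 2747 at P28 and 489 to 558 against 968 to 1868 at 12 months. The 10 genes did not move alike. At 12 months 3 were higher, Malat1 among them, and 1 was lower (Miat, log2 change −0.56), by an adjusted p under 0.05 in the gene-level fit with limma. The background was 16.1% and 23.5% of all genes tested. The mitochondrial share of gene signal was 7.36 to 9.31% in P28 wild type and 4.56 to 7.08% in P28 knockout, and it was higher in the knockout at 12 months, 9.94 to 12.6% against 7.36 to 8.29%. Pigment epithelium genes summed to a CPM of 379 to 599 in 12-month wild type and 276 to 311 in 12-month knockout, against 337 to 754 and 316 to 422 at P28, where they overlap. The 5 genes of red blood cells were lower in the knockout at both ages without overlap, with a sum of 32.5 to 49.6 in wild type and 12.6 to 23.6 in knockout at P28, and of 19.2 to 34.1 and 4.33 to 9.94 at 12 months. At P28 each of the 5 had an unadjusted p under 0.05 in the gene-level fit with limma, given without the share over all genes. The part of RNA origin or of other cells in the member shares was not tested.

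To compare groups gene by gene, the log2 ratio of a member's RPKM to that of the other transcripts of its gene was fitted, each with 0.5 added. Of the 7807 members, 7800 could be tested, since 7 had no other transcript above 0. They were fitted together with all transcripts over the same threshold, 33167 in all, and a call is an adjusted p under 0.05 over those.

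At P28 the knockout changed the share of few members. The share was higher in the knockout for 4 members (0.0513% of those tested), which come from 2 genes, and lower for 0. The background was 0.0151% and 0.00302% of all tested transcripts (0.0181% in either direction). Without adjustment, 906 members had a p under 0.05 with a higher and 157 with a lower share, against 1996 and 1852 of all 33167 tested transcripts. The median change of the log2 ratio was 0.15 over members and −0.0033 over all transcripts tested. Leaving out P28 knockout library 2 gave 8 calls and a median of 0.11, and leaving out any other library gave 2 to 4 calls. Transcript classes did not shift alike: the median was −0.10 over 18658 protein-coding transcripts, 0.09 over 3747 processed transcripts and 0.02 over 2032 transcripts with the nonsense-mediated decay biotype.

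**Figure D2:**
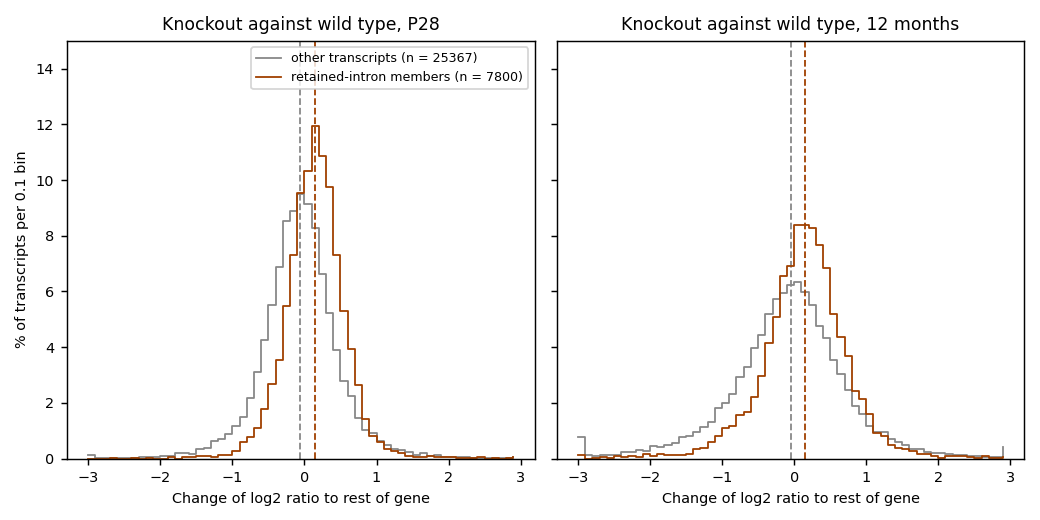
Distribution of the knockout minus wild-type change of the log2 ratio to the rest of the gene, in percent of transcripts per bin of 0.1, for 7800 tested members and 25367 other tested transcripts at P28 (left) and 12 months (right); dashed lines are medians, and values beyond 3 are put in the outermost bins. The member curve sits to the right of the other at both ages, with medians of 0.15 and 0.16.

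Pds5a supplied 3 of the 4 calls at P28. Its product binds cohesin, the ring complex that holds sister chromatids and chromatin loops, and regulates its release. Pds5a-210 (chr5:65615416-65622548) reads through the acceptor printed above and has 1936 own bases. It made up 2.36, 2.46 and 2.22% of Pds5a in P28 wild type and 8.01, 7.15 and 8.24% in P28 knockout. At 12 months it was 6.21, 6.78 and 7.11% in wild type and 7.05, 7.56 and 7.74% in knockout. P28 wild type thus stood below all 9 other libraries. The log2 ratio rose by 1.73 ± 0.14 (SE, adjusted p = 0.00314).

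The change came from both parts of the ratio. The RPKM of Pds5a-210 itself was 2.66, 3.12 and 2.75 in P28 wild type and 4.54, 3.54 and 5.44 in P28 knockout. The other transcripts of Pds5a summed to an RPKM of 110, 124 and 121 in P28 wild type, against 52.1, 46.0 and 60.6 in P28 knockout and 40.6 to 65.8 at 12 months. The rest of the gene was thus highest in the 3 P28 wild-type libraries. As a level not relative to the gene, Pds5a-210 did not pass the test.

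The other Pds5a members share that denominator. Pds5a-206 (chr5:65642081-65645101) was 1.15, 1.04 and 0.877% of the gene in P28 wild type and 3.10, 4.06 and 3.02% in P28 knockout (log2 ratio 1.60 ± 0.19, adjusted p = 0.0263). Pds5a-205 (chr5:65637742-65638916) was 2.68, 3.87 and 2.99% and 7.57, 8.33 and 7.63% (1.35 ± 0.17, adjusted p = 0.0358). The groups did not overlap in either. Each lost the call in 9 of 12 fits that left out 1 library, while Pds5a-210 kept it in all 12.

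Zfand5-203 behaved otherwise, since its own level moved and the rest of the gene did not. Zfand5 encodes a ubiquitin-binding zinc finger protein. The member (chr19:21275980-21280664) holds 1 whole intron and was 0.518, 0.525 and 0.751% of Zfand5 in P28 wild type and 3.17, 2.81 and 3.21% in P28 knockout. Its RPKM was 0.426, 0.498 and 0.767 against 3.20, 1.99 and 3.87, with no overlap, and the rest of the gene had a mean change of 0.00 on the log2 scale. The log2 ratio rose by 1.70 ± 0.17 (adjusted p = 0.00663), and the call held in all 12 fits without 1 library. With sex in the model, of these 4 members only Pds5a-210 passed, and in a fit of the 6 P28 libraries alone 0 members passed by limma (657 at an unadjusted p under 0.05). In 12-month retina the shares were 1.94, 2.01 and 1.90% in wild type and 1.77, 1.68 and 2.21% in knockout, between the 2 groups at P28.

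No other P28 difference passed, including those of large size in genes of interest. Nktr-213, an 8950-base transcript of which 8275 bases are its own, was 3.73, 3.30 and 3.23% in wild type against 5.15, 8.38 and 6.38% in knockout (log2 ratio 0.86 ± 0.20, adjusted p = 0.185). There P28 knockout library 2 gave the highest share. Rbm39-205 was 3.52, 4.17 and 3.90% against 5.67, 5.83 and 6.58% (0.65 ± 0.16, adjusted p = 0.202), without overlap.

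Photoreceptor genes held similar differences at P28. Sag-202, from the rod arrestin gene, was 1.07, 1.36 and 0.952% in wild type and 2.13, 2.57 and 2.62% in knockout (1.12 ± 0.20, adjusted p = 0.134). Cngb1-209, from the gene of a rod channel opened by cyclic GMP, went the other way, 16.1, 18.9 and 20.8% against 11.1, 10.9 and 8.96% (−0.95 ± 0.27, adjusted p = 0.248). The values do not overlap in either of these, but with an adjusted p above 0.05 neither is counted as changed.

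At 12 months many more members differed. The share was higher in the knockout for 406 members of 391 genes and lower for 121 members of 117 genes, or 5.21% and 1.55% of members tested, against a background of 3.16% and 4.03% of all tested transcripts (7.19% in either direction). Among protein-coding transcripts 454 were higher and 987 lower, among transcripts of the decay biotype 45 and 96, and among processed transcripts 130 and 109. Shares within a gene sum to 100%, so a rise of a member and a fall of a coding transcript of the same gene are 1 observation. The median change of the log2 ratio was 0.16 over members and 0.0093 over all transcripts tested.

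The number of calls at 12 months rests on single libraries. It was 527 with all, 174 without 12-month knockout library 1, 3 without library 2 of that group, and 3, 51 and 15 without 12-month wild-type libraries 1, 2 and 3. Libraries of the other age act through the common estimate of spread: 1085 members passed without P28 knockout library 2, and 308, 262 and 288 without P28 wild-type libraries 1, 2 and 3. Without the 3 remaining libraries the number was 427 to 612. Each of the 527 kept its direction in all 12 fits. Leaving out a P28 library cannot alter the fitted change at 12 months, so in those fits the direction was fixed in advance. The other fits reuse libraries on which the members were called, so the kept direction is no independent support. With sex added to the model 65 passed, of which 53 were among the 527. Of 57 calls of named members in all comparisons 12 held with sex in the model: Sri-201, Gnb3-203, Sag-206, Ldha-204, Rpl18-209, Aimp1-208 and Atp6v1e1-202 at 12 months, Pds5a-210 at P28 and with age in wild type, and Dedd2-203, Sri-201 and Sugp2-209 with age in knockout. The other 45 were lost.

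By the medians, rises of share came with a fall of the rest of the gene more than with a rise of the member. Over the 406 members with a higher share, the median change was 0.42 for the member's own log2 RPKM and −0.66 for that of the other transcripts. The member's own level was above that of wild type in 324, the rest of the gene was lower in 340, and both held in 258. Over all 7800 tested members these numbers were 4162, 4331 and 1492. The 406 were called on the ratio of these parts, so a rise of the member or a fall of the rest is built in. The 121 members with a lower share differed: their own level changed by a median of −1.28 and the rest of the gene by 0.17. Tested as a level instead of a share, 932 members were higher and 706 lower. These counts are given without the share over all transcripts, so they are no result about members.

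**Figure D3:**
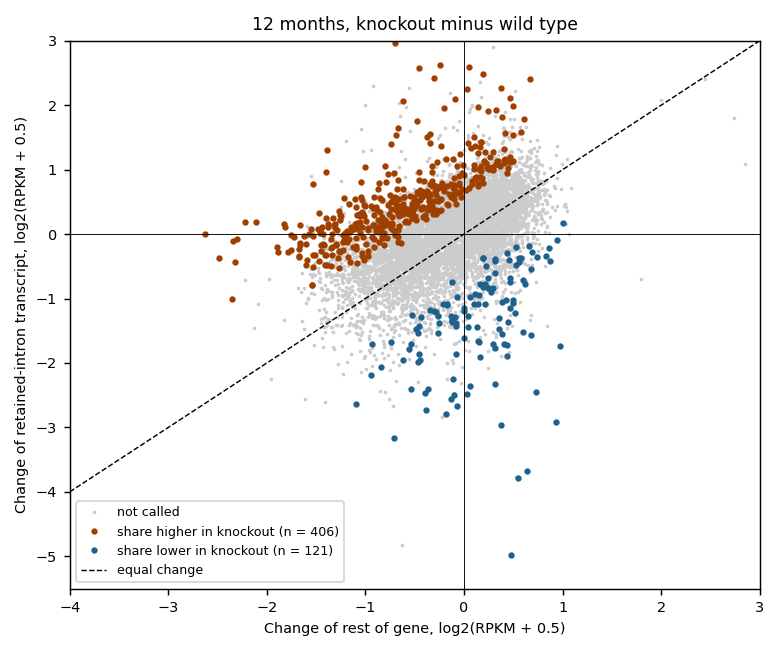
Change in the knockout at 12 months of each tested member (vertical) and of the other transcripts of its gene (horizontal), both as differences of mean log2(RPKM + 0.5); coloured points passed the test for share and the dashed line marks equal change. Points with a higher share (406) lie mostly to the left of zero on the horizontal axis, while those with a lower share (121) lie low on the vertical axis; 8 members fall outside the axes.

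Members with a higher share were longer and had more bases of their own than those with a lower share. The former had a median length of 1356.5 bases, 642 own bases and a share of 16.2%, against 848, 351 and 10.3% for all tested members. The latter had 727 bases, 172.5 own bases and a share of 8.59%. Whole introns inside the first had a median length of 392.5 bases (328 introns) and inside the second of 148 bases (59 introns). Such an intron must fit inside an exon of its member, so longer members could hold longer introns. With fewer own bases fewer reads separate a member from its sisters, so the estimates of the second group rest on less. With a trend on length and GC content removed, 407 members were called higher and 94 lower. Of these 501 calls 410 were among the 527 of the main fit.

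The largest falls were members that the 12-month knockout libraries scarcely contained. Values of 0 were more common there among members in general. At 12 months 119, 182 and 94 members are listed at 0 in the knockout libraries, against 58, 56 and 36 in wild type. Each 12-month knockout library also had a lower depth than each 12-month wild-type library. Whether depth bears on the values of 0 given below was not tested. Sri-201, from the gene of the calcium-binding protein sorcin (chr5:8059342-8067726), was 49.0, 38.0 and 40.8% of Sri in 12-month wild type and is listed at 0 in all 3 knockout libraries. It was 41.8, 33.7 and 31.7% in P28 wild type and 39.2, 53.4 and 27.8% in P28 knockout, so that 9 libraries had it as a main product. The call (adjusted p = 9.06e-04) held in each of 12 fits without 1 library. Only 11 bases of Sri-201 are its own, the summed RPKM of the other Sri transcripts was 7.32, 8.71 and 7.91 against 11.5, 16.0 and 11.1, and how reads shared between transcripts were divided was not tested.

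Several other falls were of this kind. Nktr-217 was 9.71, 4.15 and 4.65% in wild type and is listed at 0 in all 3 knockout libraries (adjusted p = 0.0397). Vim-203, from the vimentin gene of Müller glia and astrocytes, was 39.2, 30.6 and 30.9% and is at or below 2.93e-06% in the knockout (adjusted p = 0.0296). Itm2b-202, from the gene of the membrane protein BRI2, was 39.9, 38.1 and 22.6% and then 0.166% in 1 library and 0 in the other two (adjusted p = 0.0273). In P28 knockout library 3 Itm2b-202 is also listed at 0, and Vim-203 and Nktr-217 are near 0 there, while the other P28 libraries hold 17.9% or more of Itm2b. They have 116, 52 and 78 own bases, in the order given.

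Less extreme falls kept a measured value in the knockout. Ythdf2-202, from the gene of a reader of N6-methyladenosine that promotes decay of marked RNAs, was 50.4, 48.2 and 40.8% in 12-month wild type and 2.90, 0 and 8.55% in knockout (adjusted p = 0.0183). Reln-203, of the secreted glycoprotein reelin, was 10.9, 12.5 and 11.1% and 1.25, 0 and 2.27% (adjusted p = 0.0202). Cdc123-208, from the gene of an assembly factor of the translation initiator eIF2, was 16.5, 11.9 and 12.2% and 1.43, 0.242 and 2.35% (log2 ratio −3.33 ± 0.63, adjusted p = 0.0246). In each of these 3 genes the lowest share was that of knockout library 2.

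The largest rises were of members that were minor products in wild type. Aimp1-208, from the gene of a scaffold of the multi-tRNA synthetase complex, was 3.18, 6.12 and 0% in 12-month wild type and 37.7, 45.2 and 21.3% in knockout (log2 ratio 3.66 ± 0.84, adjusted p = 0.0341). Atp6v1e1-202, of a proton pump subunit of lysosomes and synaptic vesicles, was 4.96, 5.71 and 2.53% and 23.4, 45.0 and 19.6% (3.03 ± 0.59, adjusted p = 0.0253). Cwc15-204, of a spliceosome-associated protein, was 5.79, 5.65 and 5.93% and 34.7, 39.1 and 21.01% (2.73 ± 0.60, adjusted p = 0.0314). Library 2 of the knockout was highest in all of these, and the groups did not overlap.

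Further rises at 12 months, named by their size, follow. Leo1-202, of the transcription elongation complex PAF1, was 0, 8.38 and 0% against 21.2, 31.4 and 22.5% (2.87 ± 0.66, adjusted p = 0.0344). Dvl1-203, of the Wnt signal transducer dishevelled, was 7.16, 0 and 9.66% against 42.0, 66.2 and 29.7% (2.69 ± 0.62, adjusted p = 0.0352). Gapvd1-214, of an endosomal Rab5 exchange factor, was 0.543, 0 and 0% against 11.5, 5.24 and 6.96% (2.54 ± 0.54, adjusted p = 0.0296). Arhgef11-203, of a guanine nucleotide exchange factor, is listed at 0 in all 6 wild-type libraries and was 6.09, 11.9 and 29.8% at P28 and 12.7, 39.6 and 13.7% at 12 months in knockout, with an adjusted p of 0.224 and of 0.0291. Its fitted change depends on the value of 0.5 added before the ratio and is not given. Arhgef11-203 passed the RPKM threshold only through knockout libraries. The filter favoured a higher value there, so the p-values of this member are no independent support for a rise.

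The gene lists place these calls by function. They were drawn up with earlier results of these data known, so their counts are descriptions. They are parts of the 527 calls, a number that was 3 without 12-month knockout library 2 or without wild-type library 1. The background for each list is 3.16% higher and 4.03% lower over all tested transcripts. Of 161 tested members in 46 genes of splicing and RNA proteins known for regulated or detained introns, 9 (5.59%) were higher and 5 (3.11%) lower at 12 months, with a median log2 ratio change of 0.13. Srsf5-212 was already the main product and rose from 50.1, 56.6 and 59.1% to 72.8, 74.9 and 71.4% (1.13 ± 0.28, adjusted p = 0.0418). Hnrnpa2b1-208, with 1 whole intron, went from 13.8, 14.8 and 15.9% to 20.98, 23.0 and 19.9% (0.63 ± 0.14, adjusted p = 0.0311). Neither overlapped between the genotypes, and in Srsf5 the P28 groups had spanned 49.3 to 57.9% and 54.4 to 72.7%.

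In that list the direction differed even within a gene or a family. Snrnp70-208, which keeps the 129-base intron printed above in the gene of the U1 snRNP 70K protein, was 0.805, 0.550 and 0.724% in wild type and 1.51, 2.05 and 1.30% in knockout (1.10 ± 0.22, adjusted p = 0.0272). Ddx39b-204, of an RNA helicase of splicing and export, went from 37.1, 40.6 and 36.8% to 52.8, 64.1 and 50.9% (1.02 ± 0.21, adjusted p = 0.0277) while its own RPKM went from 21.2, 19.6 and 19.2 to 14.6, 11.5 and 15.7. Rbm3-209, of a cold-inducible RNA-binding protein, fell from 12.9, 11.5 and 8.98% to 2.26, 0.609 and 3.10% (−2.71 ± 0.59, adjusted p = 0.0313). Members of Clk1, a kinase that phosphorylates SR proteins, went both ways: Clk1-212 (1.03) and Clk1-204 (0.51) were higher and Clk1-213 (−1.39) lower, named after their values were seen.

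Among 71 tested members of 25 photoreceptor genes, 7 (9.86%) were higher and 5 (7.04%) lower at 12 months, with a median of 0.08, against the background of 3.16% and 4.03%. Gnb3-203, from the cone transducin beta subunit gene (chr6:124839099-124840083), keeps the 258-base intron printed above. It was 10.8, 11.5 and 10.001% of Gnb3 in wild type and 21.5, 27.6 and 21.3% in knockout (1.34 ± 0.24, adjusted p = 0.0230). Its own RPKM was 10.9, 10.04 and 9.60 against 7.53, 7.01 and 9.50, while the other Gnb3 transcripts went from 89.9, 77.1 and 86.4 to 27.4, 18.4 and 35.1. The share was thus higher while the member's own RPKM was not.

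Reep6 and Sag show the 2 forms of a higher share. Reep6-206, from a gene of rod endoplasmic reticulum shaping (chr10:80330198-80334432), was the larger part of the gene in knockout, 60.2, 75.5 and 61.1% against 36.6, 40.8 and 38.0% in wild type (1.61 ± 0.29, adjusted p = 0.0225). Its RPKM was 53.6, 47.9 and 56.3 in wild type and 41.6, 36.8 and 52.5 in knockout, and the rest of the gene went from 92.9, 69.6 and 91.9 to 27.4, 12.0 and 33.5. Sag-206 (chr1:87826488-87835414, 2696 own bases) rose both as a share, from 4.51, 5.55 and 4.92% to 10.2, 13.7 and 9.50% (1.24 ± 0.22, adjusted p = 0.0217), and in its own RPKM, from 73.8, 80.5 and 70.1 to 105, 107 and 104. The remaining photoreceptor rises were Pde6h-201 (0.98), Unc119-206 (0.81), Arr3-207 (0.75) and Prom1-213 (1.44), named after their values were seen. Pde6h encodes the inhibitory subunit of cone phosphodiesterase and Arr3 cone arrestin.

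The 5 falls within the photoreceptor list came from 5 genes. Gnb1-206, from the rod transducin beta subunit gene, was 7.31, 3.61 and 3.45% in wild type and 1.11, 0.903 and 1.12% in knockout (−2.14 ± 0.41, adjusted p = 0.0246). Cngb1-209 was 23.3, 24.0 and 23.0% and 17.2, 7.89 and 13.9% (−1.07 ± 0.27, adjusted p = 0.0426), lower again as at P28, where it did not pass. Abca4-205 (−1.12) of the retinoid flippase, Rpgrip1-203 (−1.14) of the connecting cilium and Prom1-215 (−1.32) of the disc rim protein prominin complete the 5, also named after their values were seen. Gnb1-206 has 94 own bases and Cngb1-209 has 77.

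Synaptic genes held few members. Of 21 tested in 15 genes, 1 was higher and 0 were lower, with a median of −0.14. Slc17a7-203, from the vesicular glutamate transporter gene used at photoreceptor and bipolar terminals, contains 7 whole introns, among them the 76-base one printed above. It was 8.11, 9.69 and 9.26% in wild type and 13.5, 16.9 and 13.4% in knockout (0.78 ± 0.16, adjusted p = 0.0284). Here too its own RPKM stayed between 20.9 and 24.3 in all 6 libraries while the rest of the gene went from 247, 220 and 238 to 142, 103 and 157. Map4-208, of a microtubule-associated protein, was 5.31, 6.31 and 5.65% against 3.61, 4.19 and 3.82% and did not pass (−0.55 ± 0.17, adjusted p = 0.0673).

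Energy metabolism had the highest list median at 12 months. Of 84 tested members in 31 genes of glycolysis, the citrate cycle and the respiratory chain, 10 (11.9%) were higher and 1 (1.19%) lower, against the background of 3.16% and 4.03%, with a median of 0.44, against 0.16 over all members. Ldha-204, from the lactate dehydrogenase A gene (chr7:46845843-46848145), was a small product, 1.02, 0.963 and 0.996% in wild type and 2.72, 2.63 and 2.09% in knockout. Its log2 ratio rose by 1.27 ± 0.17 (adjusted p = 0.0134). At P28 the shares were 1.42, 1.35 and 1.21% and 1.44, 1.44 and 1.92%.

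Of the 10 energy members with a higher share, the own level was above that of wild type in 6 and below it in 4. Aldoa-206, of aldolase A, was 1.98, 2.45 and 2.40% in wild type and 4.68, 6.53 and 5.16% in knockout (1.32 ± 0.27, adjusted p = 0.0283), with an RPKM of 10.5, 10.4 and 10.2 against 8.13, 6.15 and 10.3. Gpi1-203, of glucose-6-phosphate isomerase, was 17.4, 20.8 and 23.0% and 29.0, 38.0 and 30.9% (0.92 ± 0.19, adjusted p = 0.0288), with an RPKM of 52.1, 55.6 and 61.9 against 40.5, 33.4 and 48.8. Ndufs7-203, of a subunit of respiratory complex I, went from 22.9, 21.8 and 28.9% to 49.3, 54.1 and 53.2% (1.52 ± 0.25, adjusted p = 0.0196). Pfkp-210, of platelet-type phosphofructokinase, rose in its own RPKM as well, from 7.39, 8.11 and 5.99 to 12.0, 10.6 and 9.98, and in share from 2.69, 2.95 and 2.41% to 5.97, 5.66 and 4.56% (1.01 ± 0.25, adjusted p = 0.0422). Gapdh-206, the most abundant member, was 27.5, 37.6 and 36.0% against 54.4, 66.5 and 43.9% and did not pass (1.28 ± 0.42, adjusted p = 0.0838). The 1 fall was Eno1-206 (−2.44), named after its value was seen.

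Of 80 tested members in 30 ribosomal protein and translation genes, 4 were higher and 0 lower, with a median of 0.11. Rpl18-209 was 21.8, 27.9 and 15.5% in wild type and 65.5, 66.3 and 40.2% in knockout (2.12 ± 0.44, adjusted p = 0.0284). Rpl8-203 was 6.30, 7.18 and 6.26% and 24.3, 41.5 and 23.4% (2.40 ± 0.45, adjusted p = 0.0240), while its RPKM was 2.46, 1.79 and 2.10 against 2.48, 2.33 and 2.58. Eef1d-202, of an exchange factor subunit of translation elongation, was 11.0, 15.7 and 13.9% and 28.2, 30.8 and 23.9% (1.23 ± 0.28, adjusted p = 0.0349), and Rpl4-202 was 5.43, 9.59 and 6.51% and 9.74, 15.3 and 13.7% (0.94 ± 0.25, adjusted p = 0.0495). In Rpl18 and Rpl8 the other transcripts of the gene were lower in every knockout library than in any wild-type library at this age.

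**Figure D4:**
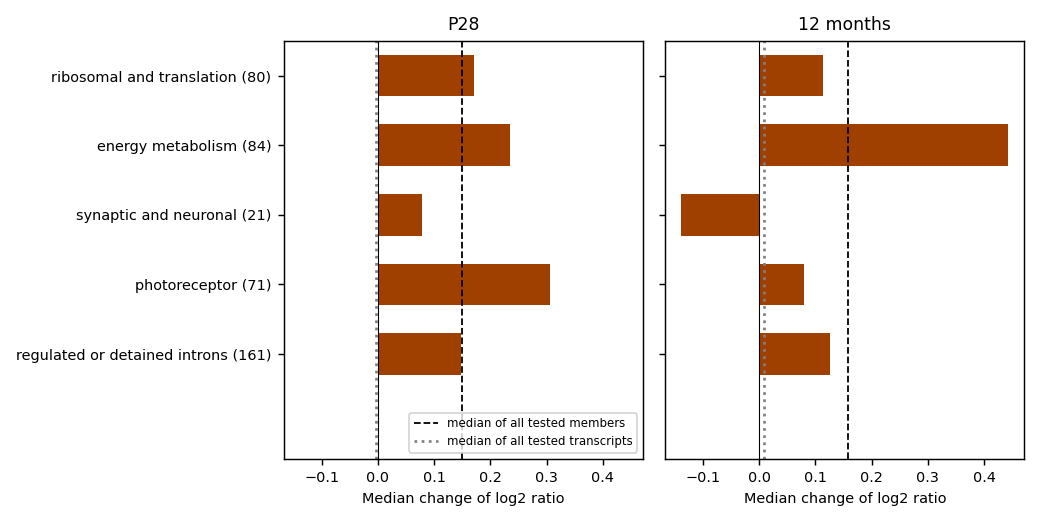
Median knockout minus wild-type change of the log2 ratio over the tested members of each gene list (number in parentheses) at P28 and 12 months; the dashed line is the median over all tested members and the dotted line that over all tested transcripts. Energy metabolism reaches 0.44 at 12 months and synaptic genes lie at −0.14, while at P28 the photoreceptor list is highest, at 0.31.

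At P28 none of the lists in the plot of list medians had a called member. By limma, 28, 18, 5, 13 and 7 of their members had an unadjusted p under 0.05 with a higher share and 4, 3, 0, 0 and 0 with a lower one, in the order of the medians that follow. The lists held 161, 71, 21, 84 and 80 tested members in that order. Such a p was reached by 1996 and 1852 of all 33167 tested transcripts. The medians were 0.15 for splicing and RNA genes, 0.31 for photoreceptor genes, 0.08 for synaptic genes, 0.24 for energy metabolism and 0.17 for ribosomal and translation genes. Of the 406 and 121 members called at 12 months none was called at P28, where their medians were 0.38 and −0.21. With 3 libraries a group, a p that misses the threshold at P28 does not show that the share stayed the same.

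Further members with the smallest p of their list at P28 show the size of these differences. Impdh1-203, from the gene of a retinal enzyme of guanine nucleotide synthesis, was 8.69, 9.14 and 7.22% in P28 wild type and 11.9, 14.2 and 13.7% in P28 knockout (0.74 ± 0.20, adjusted p = 0.240). Trpm1-214, from the gene of the cation channel of ON bipolar cells, was 2.87, 3.80 and 3.65% in P28 wild type and 4.74, 6.14 and 5.73% in P28 knockout (0.61 ± 0.18, adjusted p = 0.262). Pkm-205, from the pyruvate kinase gene, was 4.75, 5.28 and 4.31% in P28 wild type and 6.25, 7.79 and 6.78% in P28 knockout (0.57 ± 0.16, adjusted p = 0.254). In these 3 every P28 knockout library lies above every P28 wild-type library. Eif4a2-205, from the gene of a translation initiation helicase, was 0.525, 0.675 and 0.965% in P28 wild type and 0.921, 1.24 and 1.39% in P28 knockout (0.67 ± 0.25, adjusted p = 0.355). Stx3-205, from the gene of the syntaxin of ribbon synapses, was 5.65, 6.12 and 4.95% in P28 wild type and 7.91, 9.47 and 8.03% in P28 knockout (0.64 ± 0.18, adjusted p = 0.254). Of these 5 only Eif4a2-205 overlaps between the genotypes, and none passed the test.

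The difference of the knockout effect between ages was tested itself. It passed for 0 members with a larger and 3 (0.0385% of those tested) with a smaller effect at 12 months. The background was 0.00603% and 0.0181% (0.0241% in either direction). Pds5a-210 went from 1.73 at P28 to 0.09 at 12 months (difference −1.64 ± 0.20, adjusted p = 0.0274). Zfand5-203 went from 1.70 to −0.18 (difference −1.88 ± 0.24, adjusted p = 0.0404). Sri-201 had a change of 0.24 ± 0.34 at P28 and is listed at 0 in 12-month knockout (adjusted p of the difference 0.0241). Without adjustment the p was under 0.05 for 384 of 7800 members with a larger and 381 with a smaller effect. Over all 33167 tested transcripts these numbers were 1837 and 2028, so members did not stand out. In 12 fits without 1 library, Pds5a-210 and Sri-201 each kept the call in 3 and Zfand5-203 in 2. The number of members called was 6 without P28 knockout library 3, 3 without P28 knockout library 2 or 12-month knockout library 3, and 0 without any other single library. For the other members called at 12 months a difference between ages was not shown.

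From P28 to 12 months in wild type, 3 members (0.0385% of 7800 tested) rose in share and 0 fell. The background was 0.0271% and 0.0121% (0.0392% in either direction). An unadjusted p under 0.05 was reached by 253 and 122 members, against 945 and 891 of all 33167 tested transcripts. The number called was 4 without P28 knockout library 2, 2 without P28 wild-type library 3 and 1 without any other single library. The comparison shares the P28 wild-type libraries with the knockout comparison at P28. Pds5a-210 (log2 ratio 1.56 ± 0.14, adjusted p = 0.00461) and Zfand5-203 (1.22 ± 0.17, adjusted p = 0.0491) were called in both, with the values given above. Pdcd5-203, from the gene of a programmed cell death protein, was 29.6, 24.5 and 23.8% at P28 and 50.6, 41.9 and 48.4% at 12 months (1.29 ± 0.18, adjusted p = 0.0491). It was between these in knockout, 41.7, 38.6 and 41.5% at P28 and 39.3, 37.2 and 35.7% at 12 months.

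**Figure D5:**
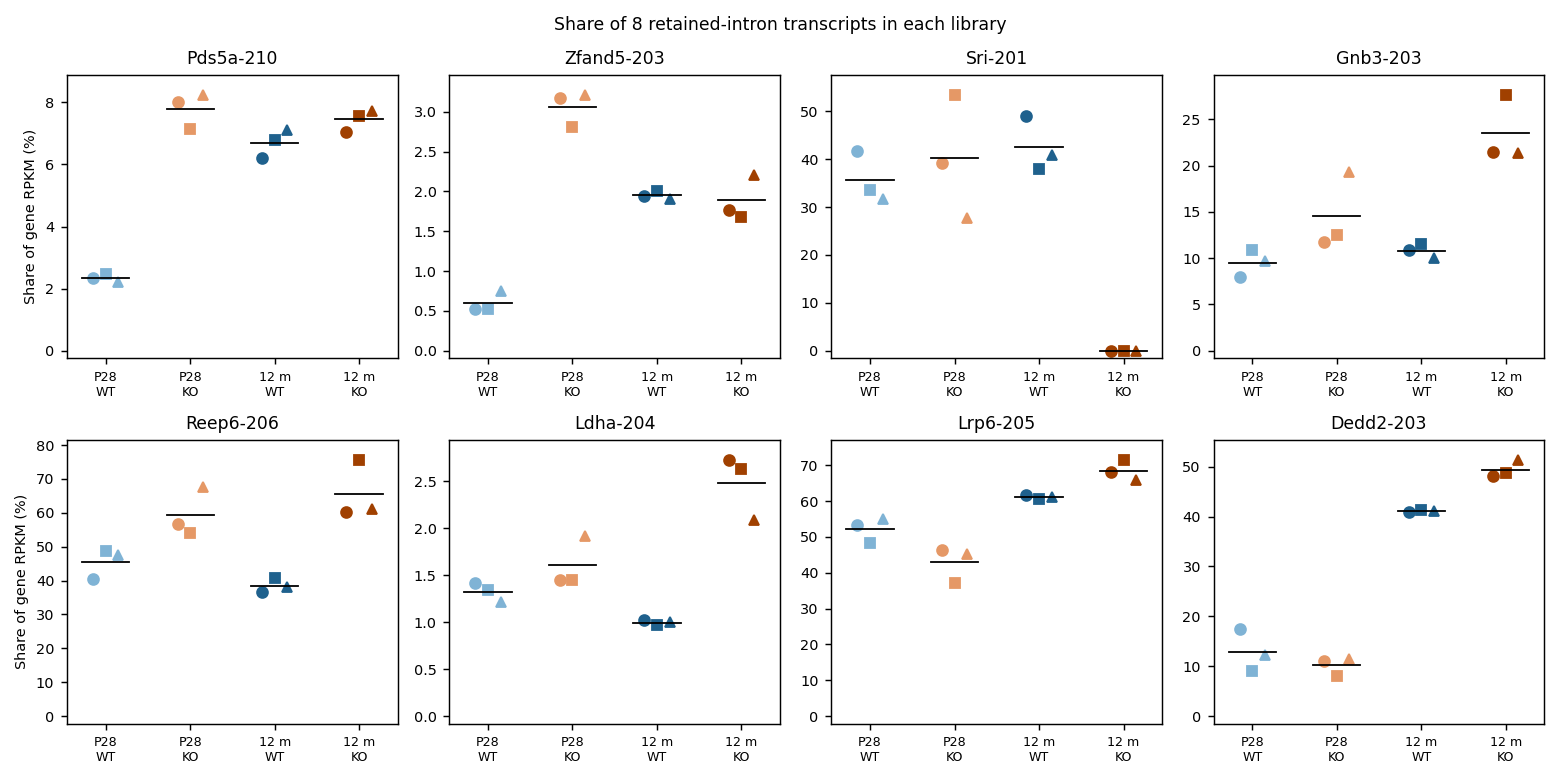
Share of its gene, in percent, of 8 named members in each library (points; marker shapes are library numbers) with the mean of 3 (lines). P28 wild type stands low for Pds5a-210 and Zfand5-203, Sri-201 is at 0 in 12-month knockout, Gnb3-203, Reep6-206 and Ldha-204 have their highest mean in 12-month knockout, and Lrp6-205 and Dedd2-203 are higher at 12 months in both genotypes.

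In the knockout 46 members (0.590% of those tested) rose and 25 (0.321%) fell with age, against a background of 0.564% and 0.573% (1.14% in either direction). The percent of rises was near that of all tested transcripts, and the percent of falls was lower. The number of members called, 71 in all, was 6 without 12-month knockout library 2, 118 without P28 knockout library 3, 63 without P28 knockout library 2 and 15 to 35 without any other single library. This comparison shares the 12-month knockout libraries with the one above, and 25 of the 406 and 6 of the 121 calls made there were made here too. Dedd2-203, from the gene of a death-effector-domain protein (chr7:25217028-25219871), was 11.0, 8.03 and 11.4% at P28 and 48.1, 48.8 and 51.3% at 12 months (1.96 ± 0.20, adjusted p = 0.00372). Wild type followed the same course, 17.4, 9.00 and 12.3% to 40.8, 41.4 and 41.2%, with an adjusted p of 0.0559. Its RPKM was 0.235 to 0.639 in the P28 libraries and 1.76 to 3.12 in the 12-month libraries. Dedd2-203 thus passed the RPKM threshold only through the 12-month libraries. The filter favoured a rise with age, so the p-values of this member are no independent support for it.

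Lrp6-205 rose with age in the knockout. Lrp6 encodes a Wnt co-receptor, and the member (chr6:134540774-134541714) has 878 own bases of 941. It was 46.4, 37.2 and 45.2% at P28 and 68.1, 71.4 and 65.9% at 12 months in knockout (1.48 ± 0.18, adjusted p = 0.00715). In wild type it was 53.5, 48.3 and 54.9% and 61.7, 60.6 and 61.3% (0.51 ± 0.18, adjusted p = 0.781). In knockout the RPKM of the member was 7.35 to 10.8 at P28 and 21.2 to 30.4 at 12 months, and the rest of the gene stayed between 11.0 and 13.1.

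Other rises with age in the knockout were named by their size. Snrnp200-205, which keeps the 92-base intron printed above in the gene of the Brr2 helicase of the spliceosome, was 0, 1.16 and 1.10% at P28 and 9.05, 20.9 and 7.85% at 12 months (2.56 ± 0.52, adjusted p = 0.0455). Sugp2-209, of a protein with splicing-factor motifs, was 1.26, 5.59 and 4.49% and 14.5, 17.4 and 16.0% (2.08 ± 0.36, adjusted p = 0.0291). Ncoa6-208, of a nuclear receptor coactivator, was 14.5, 11.5 and 17.0% and 32.9, 41.8 and 35.1% (1.69 ± 0.26, adjusted p = 0.0192). Tm9sf4-209 (1.80), Nadsyn1-206 (1.54) of the glutamine-dependent NAD synthetase and Mrps11-202 (1.51) of the mitochondrial ribosome also rose. Snrnp200-205 and Sugp2-209 were among those called against wild type at 12 months as well.

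Falls with age in the knockout were named in the same way. Besides Sri-201, with its 0 in 12-month knockout, Aplp1-203, of an amyloid precursor-like protein, was 18.9, 38.1 and 28.8% at P28 and 0, 0 and 11.2% at 12 months (adjusted p = 0.0436). Gnb1-206 was 4.10, 6.45 and 3.03% and 1.11, 0.903 and 1.12% (−2.08 ± 0.41, adjusted p = 0.0436). Prom1-219, from the gene of the disc protein prominin, was 0.915, 1.65 and 0.982% and 0.374, 0.250 and 0.351% (−1.56 ± 0.24, adjusted p = 0.0187). Sgk1-207 fell in share, 3.17, 3.47 and 1.77% to 0.805, 0.848 and 1.39% (−1.90 ± 0.22, adjusted p = 0.00613), as the other transcripts of this stress-responsive kinase gene went from 20.3 to 70.2 RPKM at P28 to 202 to 219 at 12 months. Its own RPKM was 0.365 to 2.52 and 1.64 to 3.09, so this fall is one of the rest of the gene rising. Rbm39-211, of an RNA-binding splicing coactivator, went from 0.685, 1.27 and 0.841% to 0.235, 0.230 and 0.309% (−1.47 ± 0.27, adjusted p = 0.0366). Pold3-202, of a DNA polymerase delta subunit, went from 7.27, 10.1 and 8.86% to 3.86, 1.70 and 1.78% (−1.45 ± 0.30, adjusted p = 0.0479).

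Levels of the machinery that removes introns or decays such RNAs were read from the gene table. Of 34 genes of spliceosome parts and related splicing factors, 0 were called at P28 at the gene level by limma. In that fit 17 had an unadjusted p under 0.05. So did 16 of 50 genes known for regulated or detained introns and 22 of 48 photoreceptor genes. It was reached by 8 of 34 synaptic, 9 of 38 energy and 22 of 40 ribosomal and translation genes. The number over all genes is not given here, so the 17 are no result about this list. At 12 months 3 of the 34 splicing factor genes were higher and 12 lower in the knockout. The background of adjusted calls over all genes was 1% higher and 0.491% lower at P28 and 16.1% and 23.5% at 12 months. Sf3b1, a branch-site recognition protein of the U2 snRNP, was higher (log2 change 0.44, adjusted p = 0.00431), as were Ptbp2 and the minor spliceosome gene Rnpc3. Prpf8, the core of the U5 snRNP, was lower, from a CPM of 419, 379 and 359 to 284, 196 and 287 (−0.61, adjusted p = 0.0152). U2af2, which binds the polypyrimidine tract, was lower too, from 78.2, 69.0 and 86.3 to 46.4, 33.9 and 55.6 (−0.79, adjusted p = 0.00584). The number called at 12 months was 11 to 21 when 1 library was left out, and at P28 it was 6 without knockout library 2.

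Factors of nonsense-mediated decay went mostly the same way. Of 14 genes 1 was higher at P28, Smg1 (log2 change 0.46, adjusted p = 0.0457), and at 12 months 2 were higher and 6 lower. Upf1, the helicase at the centre of the pathway, went from a CPM of 25.1, 21.2 and 23.0 in 12-month wild type to 13.1, 8.77 and 13.6 in knockout (−0.93, adjusted p = 0.00379). Upf2 and Upf3b were the 2 that rose. At 12 months 5 and 3 genes of this list were called without knockout libraries 1 and 2, and 4 each without wild-type libraries 1 and 3; at P28 the number was 4 without knockout library 2 and 0 in 9 other fits without 1 library. Whether these levels bear on the member shares was not tested.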

How the data were processed

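Retina RNA of 12 libraries was measured, and the deposited tables were used as given. Per the labels' design text, the authors estimated transcript counts with kallisto 0.45.0 on an Ensembl annotation, summed them to genes and scaled them with edgeR 4.0.3 to TMM-adjusted CPM, the signal values of the gene table. The design text names a human genome, but the identifiers and coordinates in the tables are those of mouse. The transcript table holds RPKM as deposited by the authors, and how these were made from the counts is not given in the sources used here. Because the quantifier divides reads between transcripts that overlap, a share of a gene is an estimate and depends on how many bases are a transcript's own.

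Shares were fitted with limma 3.58.1 in R 4.3.3 as log2((RPKM + 0.5)/(rest of gene + 0.5)), with 4 group means over all 12 libraries, a trend of variance on mean level, and Benjamini-Hochberg adjustment over 33167 transcripts with an RPKM of at least 1 in at least 3 libraries and another transcript of the gene above 0. A share was called at an adjusted p under 0.05, and SE is that of limma. Genes were fitted with limma on log2(CPM + 1). Where a group is at 0 the fitted change depends on the 0.5 added and is no fold. Introns, own bases and sequences came from GENCODE M21 on GRCm38. The fit was tested on simulated data. Intervals for depth were not computed, since RPKM carry no counts.

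The members and gene lists were chosen with earlier results of these data known. Named members are the 8 with the highest mean RPKM, the 6 with the highest median share, up to 8 largest called changes each way per contrast without overlap between groups (6 between ages), up to 4 by smallest p per list and knockout contrast, the 2 on each side of the RPKM threshold and the targeted locus. Symbols of predicted genes were passed over, not all of these are printed or reported here, and further ones are marked as named after their values were seen. Alternatives were the added value, the filter, the scale, a level in place of a share, leaving out libraries, the replicate number as a block, only the groups compared, sex from Xist and a length and GC trend.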

Additional observations from a re-analysis of the deposited data

Results flagged for a closer look

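In 3 members the change of share in the knockout differed between P28 and 12 months by a test of that difference itself, with limma and adjustment over all tested transcripts. The difference of the log2 ratio, 12 months minus P28, was −4.56 for Sri-201 (adjusted p = 0.0241), whose fitted change was 0.24 at P28 and −4.32 at 12 months, where the knockout is listed at 0 and the fitted value depends on the 0.5 added. It was −1.88 for Zfand5-203 (adjusted p = 0.0404), with changes of 1.70 and −0.18. It was −1.64 for Pds5a-210 (adjusted p = 0.0274), with changes of 1.73 and 0.09. For Pds5a-210 and Zfand5-203 the low value is that of P28 wild type in all 3 libraries, and for Sri-201 it is that of 12-month knockout. The direction was negative in all 12 fits without 1 library, but the call was lost in 9 of them for Sri-201, 10 for Zfand5-203 and 9 for Pds5a-210. With the replicate block, with sex in the model and on the arcsine scale 0 members were called for this difference by limma (694, 390 and 702 at an unadjusted p under 0.05).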

How the results depend on the processing

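The number of members called depended on how a share was expressed. With 0.1 added in place of 0.5, 1 member was called for the difference between ages and 1 with age in wild type; with 1 added, 6 with age in wild type. Without the filter 6 were called with age in wild type and 111 in knockout. On the arcsine scale 0 were called in the knockout at P28 (948 at an unadjusted p under 0.05) and 0 for the difference (702). As a level the calls were 63 at P28, 1638 at 12 months, 1 for the difference, 35 with age in wild type and 770 in knockout, and with median-of-ratios scaling 70, 1671, 1, 37 and 765. The share over all transcripts is not given for these level tests, so their counts are no result about members. With the length and GC trend removed, 1 was called with age in wild type.

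With the replicate block the numbers were 2, 285, 0, 0 and 21 in the same order (694 and 340 at an unadjusted p for the counts of 0). Equal numbers did not pair the libraries: of 18 same-number pairs 4 had a correlation of deviations over 0.1, from −0.243 to 0.212, and 1 of 12 libraries correlated best with its own number. At the gene level the block left 0 decay factors called at P28. With sex as a term, inferred from Xist after the labels gave none, they were 1, 65, 0, 1 and 3 (390 unadjusted for the 0). With only the groups compared, 0 were called at P28, 0 with age in wild type and 0 in knockout (657, 542 and 856 unadjusted). That fit cannot be made for the difference. Without 1 library the numbers ran from 2 to 8, 3 to 1085, 0 to 6, 1 to 4 and 6 to 118.

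Of 57 named results that were called, 809 alternatives kept the call, 479 lost it and 17 turned the direction, all in a test of the level in place of the share, which asks another question. These were Pds5a-210 for the difference (0.032), Sgk1-207 with age in knockout (0.84, or 0.80 with median-of-ratios scaling) and, in the knockout at 12 months, Ddx39b-204 (−0.51 and −0.52), Reep6-206 (−0.28 and −0.28), Gnb3-203 (−0.34 and −0.34), Slc17a7-203 (−0.050 and −0.054), Gpi1-203 (−0.47 and −0.48), Aldoa-206 (−0.35 and −0.36) and Rpl18-209 (−0.37 and −0.37). Of 23 that were not called, 514 alternatives gave no call and 14 did. The cause of the other differences was not tested. RPKM carry no read counts, so the depth behind a single share is unknown, and members with few own bases are the least certain.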

Other observations

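Members of genes of the spliceosome and related splicing factors, such as Ptbp2, were counted apart. In 26 such genes 62 members were tested, of which 10 (16.1%) were higher and 3 (4.84%) lower in the knockout at 12 months. The background was 3.16% and 4.03% of all tested transcripts, and the median log2 ratio change of these members was 0.35. At P28 none was called (13 at an unadjusted p under 0.05 with a higher share, by limma) and the median was 0.14. The calls at 12 months belong to the 527 members called there, a number that was 3 without 12-month knockout library 2 or wild-type library 1. Those higher at 12 months, named after their values were seen, were Snrnp200-205 (2.23) of the Brr2 helicase, Snrpd2-202 (1.55) of an Sm core protein, U2af2-206 (1.44) and U2af2-208 (1.20) of the polypyrimidine-tract binder, Sf3b3-203 (1.39) and Sf3b1-203 (0.70) of the U2 snRNP, Prpf6-204 (1.38) and Prpf31-205 (0.95) of the tri-snRNP, Srrm1-207 (0.60) of a splicing coactivator and Ptbp2-205 (0.58) of the neuronal polypyrimidine-tract repressor. Lower were Srrm1-213 (−1.83), Prpf19-206 (−1.22) and Srrm2-209 (−1.01). The gene Srrm1 thus had a member in each direction.

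In 5 genes of nonsense-mediated decay factors 8 members were tested and 0 were called in either direction at 12 months by limma (1 at an unadjusted p under 0.05, with a higher share), with a median of 0.36. Gas5-202, 1 of the 15 members of Gas5, changed by 1.38 at 12 months (adjusted p = 0.0384 by limma). It was named after its value was seen, and no other Gas5 member was called at that age.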
